A study of Homo sapiens with 16 samples.

Results

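The DMSO control state of the study's cells was described from 5 of its 16 libraries. These were the 3 RNA-seq libraries and the 2 ATAC-seq libraries (ATAC-seq marks open chromatin by the sites where a transposase can insert) of cells given DMSO, the solvent in which drugs such as sorafenib are dissolved. The libraries were chosen by their labels, and no library of sorafenib-treated or transfected cells was used. All samples of the series carry the label Huh7, a human hepatocellular carcinoma line, with liver as the tissue. The labels give no allele or transgene for the DMSO cells, no DMSO concentration or exposure time, and nothing on whether the replicates were separate cultures, so the spread between them may be technical. The other libraries of the series come from cells given the multikinase inhibitor sorafenib, a liver cancer drug, and from cells with MT1G overexpression or an empty vector.

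A hepatocyte is known by the plasma proteins it secretes, such as albumin and the apolipoproteins, and by its metabolic enzymes. Their genes are switched on by a network of transcription factors that includes HNF4A, the FOXA pioneer factors and CEBPA. Hepatocellular carcinoma lines usually keep part of this programme and often add fetal products such as alpha-fetoprotein. A gene in use usually has a stretch of nucleosome-poor DNA at its start, which ATAC-seq detects as a peak, although open starts are also found at genes with little RNA.

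The RNA libraries held 18243722, 21074785 and 19533077 reads counted in genes. Of the 59609 genes in the table, 14174 had a mean normalized read count of at least 10 over the 3 libraries, which is the level called measured here, and 34195 had no read in any of them. The measured genes make up 23.8% of the table, and 11841 of them are protein-coding genes by their RefSeq entry. The table also holds long noncoding RNA genes and pseudogenes. Of the 18530 genes whose annotated start is used below, 10270 were measured, a higher share. Among genes with a mean of at least 100, the median coefficient of variation was 6.96%. Spearman's correlation between pairs of libraries over the measured genes lay between 0.993 and 0.996. A gene listed at 0 had no counted read. By the limit used here, an expected count of up to 3 reads among the 58851600 of the 3 libraries could still give 0. It equals a mean of 1.06 normalized read counts. That limit covers counting error only.

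Most hepatocyte products, albumin among them, were listed at or near 0, which goes against the label of a hepatocellular carcinoma line from liver. A listed 0 need not mean absent RNA, as genes described below show, and the identity of the line was not tested. Of 22 liver transcription factors 13 were measured, a share close to the 10270 of 18530 genes whose annotated start is used below. Of the urea cycle genes listed, ASS1 and CPS1 were measured, and ARG1 and OTC were not. Of 20 secreted hepatocyte proteins 2 were measured, and of 20 hepatocyte enzymes and transporters 3 were measured, while 23.8% of all genes in the table reached that level. ALB, which encodes albumin, was listed at 0 in all 3 libraries. The apolipoprotein genes APOB, APOC3 and APOH, the protease inhibitor gene SERPINA1, and the fibrinogen chain genes FGA and FGG were also listed at 0 in all 3. APOA1, the main protein of high-density lipoprotein, had 5 reads in all, and TTR, the thyroid hormone carrier transthyretin, had 1. The other secreted members below the level were APOA2, TF, FGB, AHSG, AMBP, HP, HPX, F2 and SERPINC1, with means between 0.321 and 8.50 normalized read counts.

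The measured secreted members were RBP4, the retinol carrier, and VTN, which encodes vitronectin. RBP4 stood at 539, 521 and 625 normalized read counts in control libraries 1, 2 and 3 (mean 562 ± 56.0, SD, n = 3). VTN stood at 16.9, 21.2 and 22.9. Among the enzymes, the urea cycle genes ASS1 and CPS1 ranked 40 and 126 by read count of all genes in the table. ASS1, argininosuccinate synthetase, read 36912, 36502 and 42604 normalized read counts (38673 ± 3411, SD, n = 3). CPS1, the mitochondrial carbamoyl phosphate synthetase that starts the cycle, read 17444, 17553 and 16480 (17159 ± 591, SD, n = 3). Both were therefore high in every library, whereas the other urea cycle members of the list were not: ARG1, arginase, had 1 read in all, and OTC was listed at 0. HAL, histidine ammonia-lyase, was the third measured enzyme, at 10.1, 26.0 and 12.0.

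No other enzyme or transporter of the list was measured. TAT, G6PC, CYP3A4, CYP8B1, CYP7A1, SLC2A2, UGT2B7 and TDO2, which act in amino acid breakdown, glucose release, detoxification and bile acid synthesis, were listed at 0 in all 3 libraries. HPD, PCK1, CYP2E1, SLC10A1 and FBP1 had means between 0.375 and 6.98. The bulk RNA cannot tell fewer cells of a type from less RNA per cell.

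**Figure D1:**
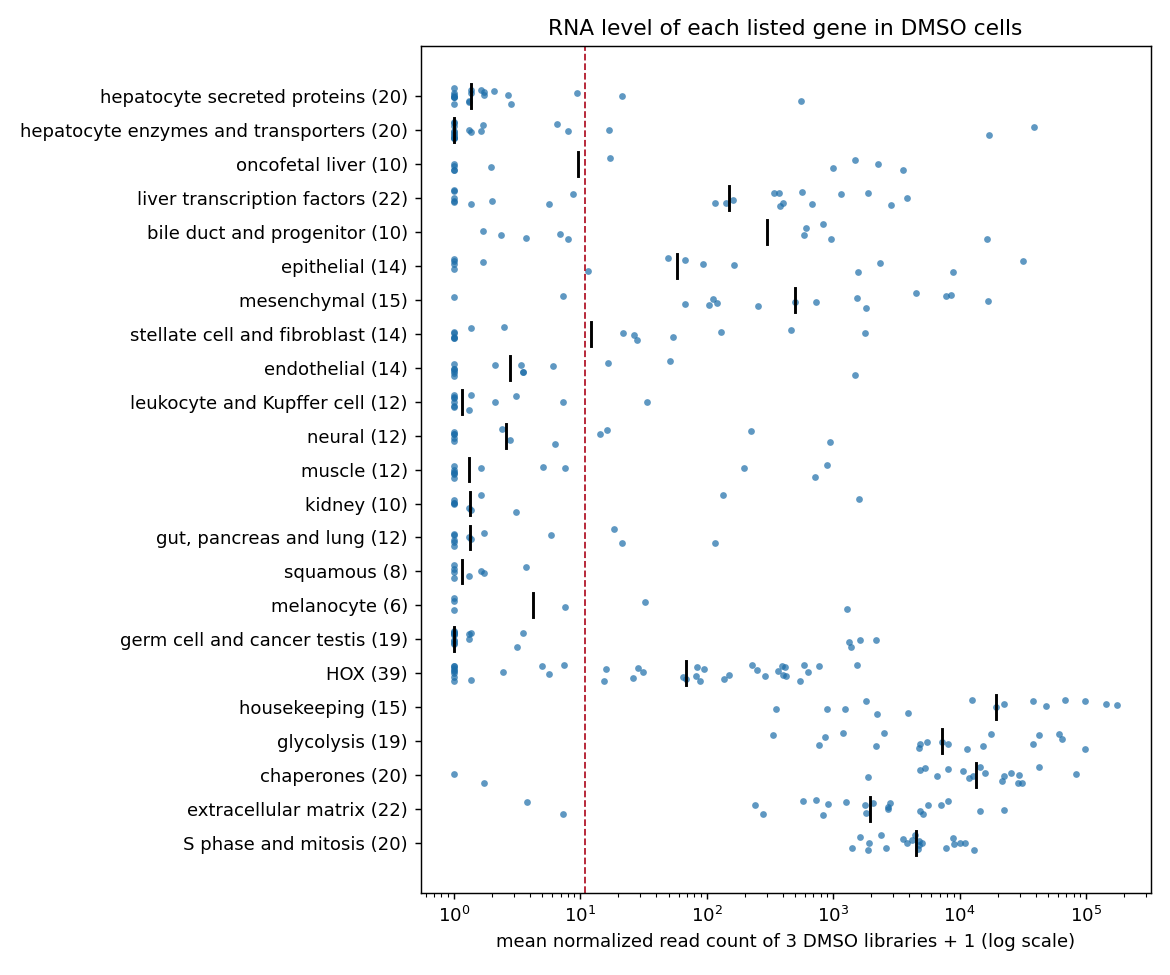
Each point is 1 gene of a list (the number of genes is in brackets), placed by its mean normalized read count over the 3 DMSO libraries plus 1, on a log axis. Black bars are list medians and the dashed line marks a mean of 10. Of the 40 hepatocyte products 35 lie left of the line, while ASS1 at 38673, CPS1 at 17159 and RBP4 at 562 lie far to the right.

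Fetal and tumour products of liver were divided. Of 10 genes, 5 were measured, beside 10270 of the 18530 genes whose annotated start is used below. PEG10, a gene derived from a retrotransposon, had a mean of 3544 ± 292 normalized read counts (SD, n = 3). IGF2BP1 and IGF2BP3, RNA-binding proteins of embryonic tissue, had means of 2279 ± 41.4 and 990.2 ± 82.8, and SPINK1, a secreted trypsin inhibitor, had a mean of 16.3. H19, an imprinted noncoding RNA, was not alike in the 3 libraries: it read 382, 493 and 3587 normalized read counts, so that its mean was 1487 with control library 3 and 438 without it. AFP, alpha-fetoprotein, had 3 reads, all in control library 2. GPC3, IGF2, DLK1 and LIN28B were listed at 0 in all 3.

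The liver transcription factors were measured more often than their usual products, in 13 of 22 cases. This share is close to that of all genes whose annotated start is used below, 10270 of 18530. RXRA, the shared partner of many nuclear receptors, had a mean of 3869 ± 228 normalized read counts (SD, n = 3), CEBPB had 2894 ± 225 and GATA4 had 1894 ± 61.1. HNF4A, the nuclear receptor at the centre of the hepatocyte network, read 339, 333 and 350, and CEBPA read 641, 651 and 762. ONECUT2 (mean 1163), TBX3 (572), HHEX (399.7), PPARA (381), FOXA1 (375), GATA6 (160) and HNF4G (116) were also measured. FOXA3 had 1 read in all. FOXA2, ONECUT1, PROX1, NR1H4 and NR1I2 were listed at 0 in all 3 libraries, and NR1I3 and NR5A2 had means of 4.66 and 7.80. The plot of hepatocyte products and transcription factors by library shows each of the measured factors above 10 in every library.

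**Figure D2:**
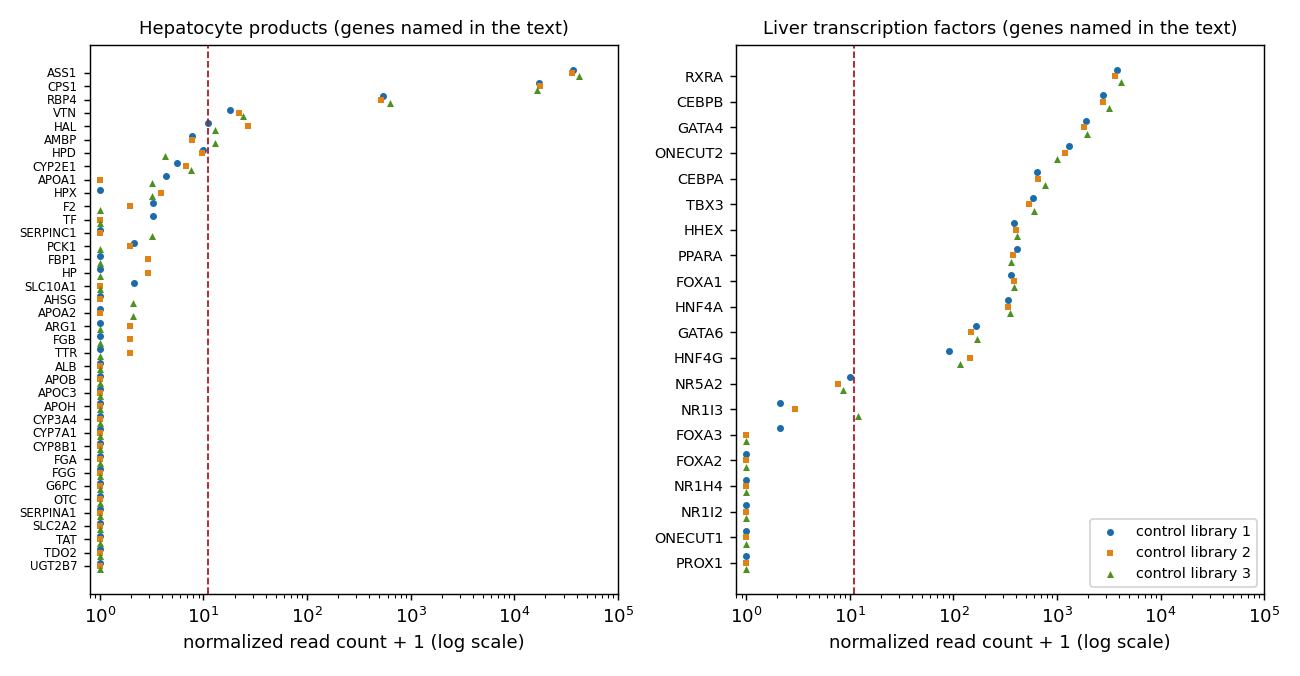
Normalized read count plus 1 (log axis) of the hepatocyte products (left) and liver transcription factors (right) reported here by name, in each of the 3 DMSO libraries; the dashed line marks a count of 10. Of the products, ASS1, CPS1 and RBP4 lie far to the right and VTN and HAL sit near the line; the factors from RXRA down to HNF4G have means of 116 or more.

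The chromatin at these genes is shown next, and the start sequences of ALB and HNF4A are printed because 1 has no accessible start and the other has an accessible and an inaccessible one. A start was called accessible when the window from 250 bases before to 50 after it, from RefSeq on GRCh38.p14, overlapped a region that had a peak in both ATAC libraries. Of all 18530 genes with such a window, 59.7% had an accessible start. Of the 40 hepatocyte products 28 had a window, and 7 of these were accessible: all 5 measured genes, RBP4, VTN, ASS1, CPS1 and HAL, and the unmeasured TF and HPD. Whether the peaks at these starts belong to neighbouring genes was not tested. The bases before the ALB start (plus strand) and the 2 HNF4A starts (plus strand) follow, with each CpG, the dinucleotide that can carry DNA methylation, in capitals.
ALB, chr4:73404037-73404286: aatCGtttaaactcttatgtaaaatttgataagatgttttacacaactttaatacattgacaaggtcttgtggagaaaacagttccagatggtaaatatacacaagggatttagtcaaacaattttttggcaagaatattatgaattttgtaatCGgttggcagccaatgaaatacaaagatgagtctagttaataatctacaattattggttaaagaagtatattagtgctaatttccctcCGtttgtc
HNF4A upstream start, chr20:44355449-44355698: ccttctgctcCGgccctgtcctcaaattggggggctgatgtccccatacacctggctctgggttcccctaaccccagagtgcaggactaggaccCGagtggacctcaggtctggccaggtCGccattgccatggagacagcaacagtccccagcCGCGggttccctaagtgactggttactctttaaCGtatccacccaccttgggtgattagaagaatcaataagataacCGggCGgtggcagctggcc
HNF4A downstream start, chr20:44400989-44401238: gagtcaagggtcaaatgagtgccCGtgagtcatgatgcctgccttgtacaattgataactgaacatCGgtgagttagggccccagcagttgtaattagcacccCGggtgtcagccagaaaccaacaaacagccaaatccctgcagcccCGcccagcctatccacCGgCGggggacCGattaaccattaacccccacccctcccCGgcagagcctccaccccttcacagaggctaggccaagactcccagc

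The ALB stretch holds 3 CpG, and the nearest shared region lay 30121 bp from its start. The HNF4A stretches hold 8 CpG each. The downstream HNF4A start, which is the one known from adult hepatocytes, was accessible, with a peak fold enrichment of 4.94 in ATAC library 1 and 5.24 in library 2. The upstream start, known from gut and pancreas, had no peak in either library, and its nearest shared region was 6542 bp away. Of the 9 measured liver factors with a window 8 were accessible, and none of the 6 unmeasured ones was. Over all genes with a window, 90.1% of the measured ones and 21.8% of those below the level (1803 of 8260) were accessible. FOXA1 was the measured factor without a shared region: it had a peak in library 2 only.

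Single starts stood out at other genes of these lists. Of the 3 CPS1 starts, the one at chr2:210477685 was accessible, at 7.02-fold and 5.76-fold, in a region of 239 bp, and both others lay 4071 bp or more from a shared region. TF, transferrin, had 2 reads in all, and its accessible start at chr3:133661998 (14.9-fold and 13.7-fold) was not the one at chr3:133746393, which had no peak. The window of the accessible TF start held 36 CpG at a GC content of 69.3%, and its peak may be that of a neighbouring gene, which was not tested. The ASS1 starts were accessible at 6.70-fold and 7.13-fold, and RBP4 reached 6.24-fold and 9.43-fold. AFP had no peak at its start, with the nearest shared region 1559 bp from the start. H19 likewise had none, at 1669 bp, despite its RNA.

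The cells had RNA of both epithelial and mesenchymal genes. The counts that follow stand beside 10270 measured of all 18530 genes with a start window. Of 14 epithelial genes 9 were measured, led by the simple-epithelium keratins KRT8 (31717 ± 3766 normalized read counts, SD, n = 3) and KRT18 (8834 ± 952) and the splicing regulator ESRP2 (2358 ± 132). The epithelial cadherin CDH1, named after its values were seen, read 6.75, 9.64 and 15.3, so its mean was 10.6 with control library 3 and 8.19, under the level, without it. GRHL2, ESRP1, OVOL1 and CLDN3 were listed at 0. Of 15 mesenchymal genes 13 were measured, with means of 16888 ± 2240 for S100A4, 8573 ± 188 for the hyaluronan receptor CD44 and 7790 ± 663 for the galectin LGALS1. PRRX1 was listed at 0, and SPARC had a mean of 6.28. Of 10 bile duct and progenitor genes 5 were measured, led by KRT7 (16568 ± 1114), CD24 (969 ± 17.3) and SOX4 (833 ± 24.5). KRT19, the duct keratin usually found with KRT7, had 2 reads.

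Markers of other lineages were measured in shares to be read against the 23.8% of all genes in the table. That share was higher among genes with a start window, with 10270 of 18530 measured. Of 14 stellate cell and fibroblast genes 7 were measured, and their summed level ran from 2374 to 2643 normalized read counts, most of it the proteoglycan LUM (1780 ± 88.1), with COL1A1 at 464 and DCN at 130; COL1A2, PDGFRA, THY1, POSTN and LRAT were listed at 0. Of 14 endothelial genes 3 were measured (sum 1444 to 1721), of which EGFL7 gave 1492 ± 131, CDH5 50.8 and VWF 15.5, while KDR, ERG, FLI1, EMCN, LYVE1 and ROBO4 were listed at 0. Of 12 leukocyte and Kupffer cell genes 1 was measured, and the list's sum stayed between 38.2 and 51.3. Of 12 neural genes 4 were measured (sum 1157 to 1272), with NES at 950.1, PAX6 at 222 and SYP at 15.2. Of 12 muscle genes 3 were measured (sum 1662 to 2081): the troponin genes TNNT1 at 891 and TNNC1 at 718, and MYLK at 198. Whether other cells contributed any of this RNA was not tested.

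Of 10 kidney genes 2 were measured, and of 12 gut, pancreas and lung genes 3. Both shares lay near the 23.8% of all genes in the table and below that of genes with a start window (10270 of 18530). SIX2, a homeobox gene of kidney progenitors, read 1598, 1538 and 1713 normalized read counts, and its start was accessible at 8.68-fold and 13.3-fold. PAX8 had a mean of 133 and no shared region at its start, and PAX2, LHX1, WT1 and UMOD were listed at 0. Of 6 melanocyte genes 2 were measured, MITF at 1300 ± 150 (SD, n = 3) and PMEL at 31.4, while TYR, DCT and SOX10 were listed at 0. Of the 3 MITF starts the most upstream, at chr3:69739464, was accessible (14.4-fold and 18.5-fold). The most downstream, at chr3:69936592, which is the start used in melanocytes, was 11392 bp from a shared region. The gut, pancreas and lung genes included MUC2 at 20.5 and NKX2-1 at 17.5, and of 8 squamous genes none reached the level.

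Of 19 germ cell and cancer testis genes, which tumours can express outside the testis, 4 were measured. This is a lower share than the 10270 of 18530 genes with a start window. MAGEA6 had a mean of 2168 ± 42.2 normalized read counts (SD, n = 3), MAGEA3 of 1628 ± 59.7, MAGEA1 of 1378 ± 20.7 and PAGE1 of 1346 ± 116. MAGEA3 and MAGEA6 are near-identical copies, so the division of reads between them is uncertain. PAGE1 had an accessible start (6.07-fold and 8.55-fold), while the MAGEA3 and MAGEA6 starts lay 56338 and 47492 bp from the nearest shared region. POU5F1, NANOG, LIN28A, DAZL and DDX4, genes of pluripotent and germ cells, had 1 read between them.

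The HOX genes, homeobox genes whose expressed set reflects position along the body axis, were measured in 26 of 39 cases. Over all genes with a start window it was 10270 of 18530. By cluster these were 10 of 11 HOXA, 8 of 10 HOXB, 7 of 9 HOXC and 1 of 9 HOXD genes. The HOXC cluster summed to 3949 to 4225 normalized read counts per library and the HOXD cluster to 125 to 153. HOXC10 had the highest count of the family, at 1527, 1559 and 1576, followed by HOXC11 (776 ± 47.3, SD, n = 3) and HOXC13 (637 ± 41.9). In the HOXA cluster, the genes at the posterior end, HOXA10, HOXA11 and HOXA13, had means of 548, 589 and 415, and the other 8 members lay between 4.70 and 88.4 (these genes were named after their values were seen). HOXD9 was the measured HOXD gene, at 135. Of the 9 measured HOX genes with a window 8 were accessible, and of the 11 unmeasured ones 2 were, HOXC5, which shares its annotated start with HOXC4, and HOXD11. These shares are close to the 90.1% of all measured genes and 21.8% of all genes below the level. HOXA6 was among the accessible ones although its window met a peak of library 1 only (3.31-fold), since the whole region was shared.

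**Figure D3:**
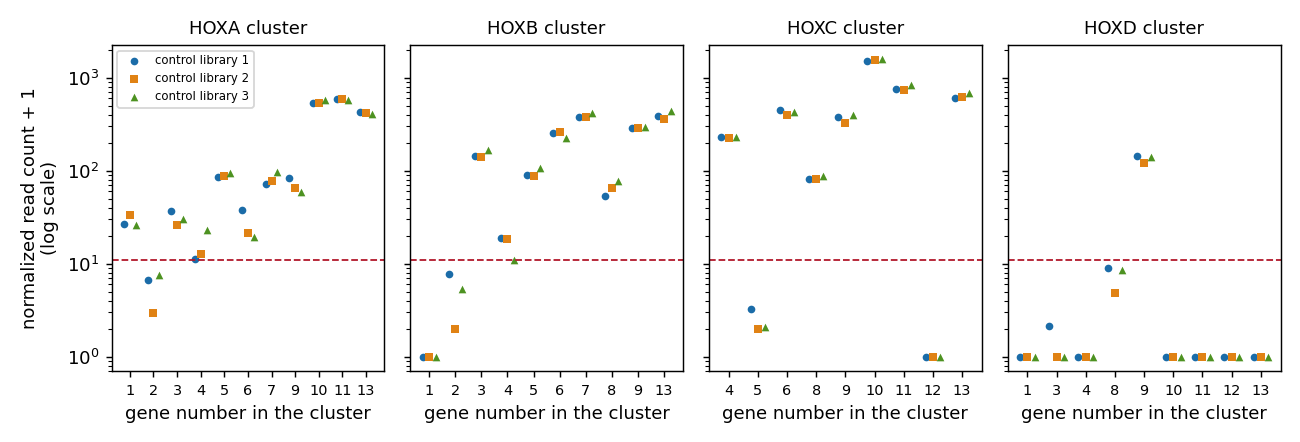
Normalized read count plus 1 (log axis) of the HOX genes in each DMSO library, in order of gene number within the 4 clusters; the dashed line marks a count of 10. HOXC10 is the highest point at about 1554 by its mean, and all HOXD genes but HOXD9 lie below the line.

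The drug's direct targets and the genes of the series title were read in the same libraries. Their counts stand beside 10270 measured of all 18530 genes with a start window. Of 12 kinases that sorafenib is known to inhibit 5 were measured, among them ARAF at 1938 ± 153 normalized read counts (SD, n = 3), FGFR1 at 537 ± 44.6, BRAF at 455 ± 56.0 and PDGFRB at 20.8. The receptor genes FLT1, KDR, PDGFRA, KIT, FLT3 and RET were listed at 0 in all 3 libraries, and FLT4 had a mean of 1.42. DNMT1, the maintenance DNA methyltransferase, had a mean of 6802 ± 175 and an accessible start at 11.9-fold and 16.0-fold. KLF4, a zinc finger transcription factor, had a mean of 80.8 ± 4.77 and an accessible start at 6.86-fold and 8.71-fold. CA9, a hypoxia-induced carbonic anhydrase, read 245, 426 and 176 (282 ± 129), the widest relative spread of these genes, and its start was 4115 bp from the nearest shared region. MT1G, a metallothionein, was listed at 0 in all 3 libraries.

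By read count, which also grows with transcript length, the top of the list was mitochondrial, translational and cytoskeletal. The 100 most abundant genes took 22.6 ± 0.550% of the reads (SD, n = 3), and the 20 most abundant 10.2 ± 0.261%. Mitochondrial transcripts gave 5 of these 20 and 11 of the 100, and cytosolic ribosomal protein genes 4 and 32. MT-CO1, a subunit of cytochrome c oxidase, came first with 307664, 278020 and 283412 normalized read counts. EEF1A1, the factor that brings aminoacyl-tRNA to the ribosome, came next with 179744, 181476 and 169844, followed by ACTB, cytoplasmic actin (143846 ± 13111, SD, n = 3), and FLNA, the actin cross-linker filamin A (144618, 134469 and 152038). MT-ND4, MT-CO2, the ferritin heavy chain gene FTH1, MT-CO3, the glycolytic gene GAPDH and RPS2 completed the first 10, and together the first 10 took 6.80% of the reads. EEF2, HSP90AB1, ACTG1, RPLP0, RPL13A, FTL, RPL8, ENO1, MT-ATP6 and PKM made up the next 10, from 83085 down to 60799 normalized read counts. All mitochondrial transcripts took 4.88 ± 0.185% of the reads and 82 ribosomal protein genes 7.99 ± 0.507%, with control library 3 highest for the latter at 8.57%.

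The lists of general cell functions were measured almost throughout. Their counts stand beside 10270 measured of all 18530 genes with a start window. All 15 housekeeping genes, all 19 glycolysis genes (GAPDH 98224, ENO1 64320 and PKM 60799 normalized read counts) and all 20 S phase and mitosis genes were measured, the last led by the replicative helicase subunits MCM7 (12970 ± 721, SD, n = 3) and MCM2 (10952 ± 821) and the ribonucleotide reductase subunit RRM1 (10044 ± 751). Of 20 antioxidant genes of the NRF2 programme 19 were measured, led by FTH1 (111842 ± 10046), FTL (66603 ± 9254) and the pentose phosphate enzyme TKT (41337 ± 4555), and AKR1B10 had a mean of 1.41. Of 22 extracellular matrix genes 20 were measured, led by the laminin chain LAMA5 (22545 ± 853) and the collagen chains COL5A1 (14579 ± 404) and COL4A2 (8166 ± 228). Of 20 chaperones 18 were measured, led by HSP90AB1 (82756 ± 1440), HSPA8 (42195 ± 886) and CCT5 (31115 ± 1509). Of 24 actin and tubulin genes 23 and of 16 translation factors 15 were measured, the former led by ACTB, FLNA and ACTG1 and the latter by EEF1A1, EEF2 and RACK1 (28840 ± 1642).

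The exceptions in these lists bear on every 0 in the table. EEF1G, a subunit of the elongation factor that all cells use, was listed at 0 in all 3 libraries, while its start was accessible at 11.4-fold and 14.8-fold. The main beta tubulin gene TUBB had a mean of 1.38 normalized read counts and an accessible start (6.90-fold and 8.15-fold). HSPA1A and HSPA1B, near-identical heat shock genes, had means of 0.739 and 0 with accessible starts. EIF4A1 had a mean of 44.6 and the glycolytic gene ALDOA 335, each with an accessible start. These genes were singled out after their values were seen. A value of 0 here therefore means that a gene was listed at 0, not that its RNA was absent, and how reads of overlapping or duplicated genes were assigned was not tested.

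The peak lists of the ATAC libraries held 131239 and 156760 peaks on chromosomes 1 to 22, X and Y. Merged at an overlap of 1 bp, they gave 166633 regions, of which 115725 (69.4%) had a peak in both libraries. Of the peaks of library 1, 89.8% overlapped a peak of library 2, and 76.1% of those of library 2 overlapped a peak of library 1. Peaks found in both had the higher fold enrichment: the median fold enrichment, the authors' value for each peak, was 7.22 against 3.47 in library 1 and 9.10 against 3.96 in library 2. Over the shared regions, Spearman's correlation of the fold enrichment in both libraries was 0.909 (115725 regions, a description, since neighbouring regions and both libraries share their DNA composition). The shared regions had a median width of 583 bp and covered 76.3 Mb.

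Most shared regions lay far from the gene starts of the reference list used here, which has none on chromosome 8. Of its starts, 25169 were matched to 18530 genes of the RNA data, and these include 10270 of the 14174 measured ones. The distances were taken to every start of the list, matched to the RNA data or not. Regions at a start that the list lacks therefore count as far. Outside chromosome 8, 13.2% of 110271 regions lay within 1 kb of a start, 16.8% lay 1 to 10 kb away and 70.0% farther. The regions near starts were wider (median 996 bp against 550 bp for those farther than 10 kb) and had a higher median fold enrichment (10.3 against 8.25).

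The share of genes with an accessible start was higher at higher RNA levels up to a mean of 100, and above that it was about the same in each class. Of the genes with no read 12.4% (661 of 5315) had an accessible start, of those with a mean above 0 up to 1 26.9%, and of those from there to below 10 45.3%. The share was 70.9% from 10 to below 100, 93.5% from 100 to below 1000, 95.8% from 1000 to below 10000, and 95.3% for the 212 genes at 10000 or more. Over all measured genes it was 90.1% (9254 of 10270). It was 90.7% for measured protein-coding genes and 78.3% for measured long noncoding RNA genes. Genes with an accessible start had a median of 453 normalized read counts and those without one a median of 0, a difference of 8.83 between medians of log2(mean + 1). That difference depends on the genes at 0: among measured genes alone it was 3.14.

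**Figure D4:**
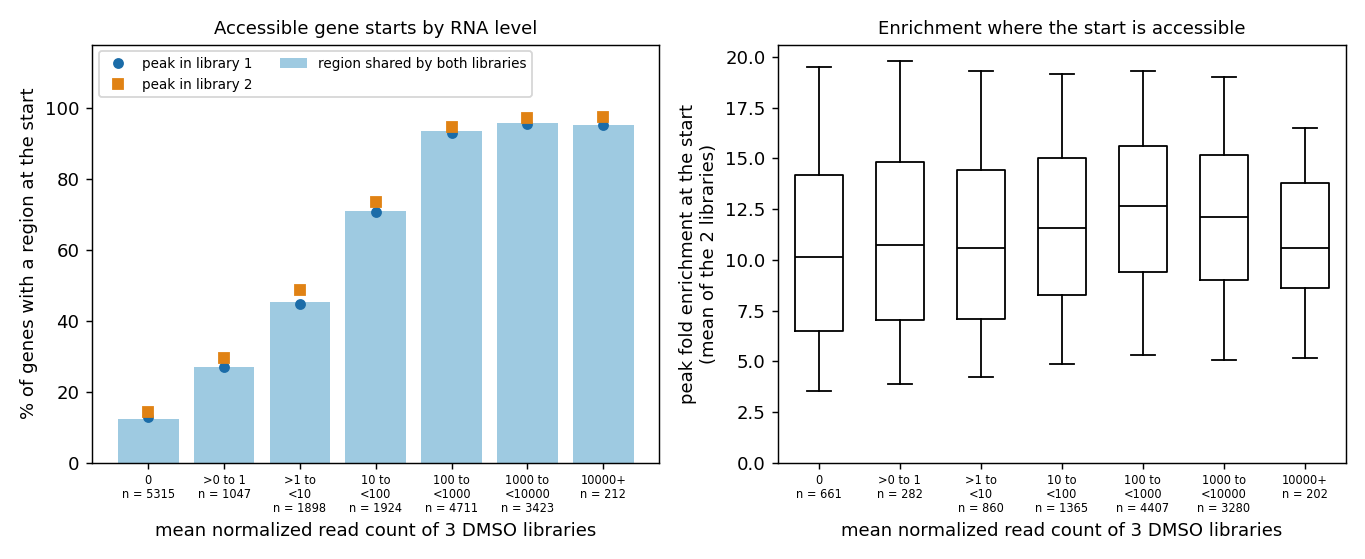
Left, percent of genes whose start window overlaps a region shared by both ATAC libraries (bars) or a peak of either library (points), by class of mean normalized read count; right, peak fold enrichment at accessible starts (line, median; box, quartiles; whiskers, 5th to 95th percentile of genes). The share goes from 12.4% to 95.3%, while the median fold enrichment stays between 10.1 and 12.7.

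Among genes with an accessible start, the strength of the peak varied little with the RNA level. Spearman's correlation of the mean read count with the fold enrichment was 0.0610 over the 11057 genes with an accessible start and -0.0194 over the 9254 measured ones. With these measured genes in 10 groups of equal size by RNA level, the median fold enrichment was 11.4 in the lowest group (median 27.7 normalized read counts), 12.7 in the third and 11.6 in the highest (median 5614). The median width of the region was 1111 bp in the lowest group and between 1172 and 1256 bp in the others. The points share the libraries and the base composition of their windows. The starts with the highest fold enrichment in the weaker library belonged to SPATA12, FAM185A, LINC00652, FMO4 and DYNC2LI1, at 24.5-fold to 23.5-fold. Of these, FAM185A (mean 121 normalized read counts) and DYNC2LI1 (181) were measured, and SPATA12, LINC00652 and FMO4 had means of 6.36, 3.52 and 1.80.

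Some of the most abundant genes had no accessible start by this rule. The 10 with the highest counts were FLNA, GAPDH, EEF2, the amino acid transporter gene SLC7A5, LAMA5, the adhesion molecule gene L1CAM, the importin gene IPO5, the mechanosensitive channel gene PIEZO1, the creatine kinase gene CKB and PGAM1. GAPDH, EEF2, SLC7A5, CKB and PGAM1 had a peak in library 2 only. For FLNA, GAPDH, SLC7A5 and L1CAM a shared region lay within 1 kb of the start, at 887, 469, 890 and 295 bp. The bases before the EEF1A1 start (minus strand, accessible at 6.81-fold and 8.98-fold) and the FLNA start (minus strand, no peak) are set side by side as 2 of the most abundant nuclear transcripts that differ in accessibility, with CpG in capitals.
EEF1A1, chr6:73521033-73521282: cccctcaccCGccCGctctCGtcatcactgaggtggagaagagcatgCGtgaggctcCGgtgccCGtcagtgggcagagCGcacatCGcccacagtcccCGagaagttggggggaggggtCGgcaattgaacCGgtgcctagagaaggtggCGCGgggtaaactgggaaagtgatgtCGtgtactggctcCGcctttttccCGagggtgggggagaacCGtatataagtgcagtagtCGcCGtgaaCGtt
FLNA, chrX:154374635-154374884: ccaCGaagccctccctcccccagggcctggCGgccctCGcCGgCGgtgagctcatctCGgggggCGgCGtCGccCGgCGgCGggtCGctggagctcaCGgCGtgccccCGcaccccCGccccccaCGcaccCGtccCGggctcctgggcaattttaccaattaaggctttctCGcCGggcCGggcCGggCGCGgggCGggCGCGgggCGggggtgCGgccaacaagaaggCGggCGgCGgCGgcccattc

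The EEF1A1 stretch holds 20 CpG and the FLNA stretch 35, and the GC content of their windows was 60.7% and 78.3%. Of the 3635 genes with a mean of at least 1000 and a window, 153 had no accessible start. Of these 153, 60 had a peak in 1 library and 74 had a shared region within 1 kb. Their windows had a median GC content of 73.3% against 67.0% in the accessible ones, and 46.4% of them against 16.5% had a GC content of 75% or more. Within genes of this level, the accessible share was lower at both ends of the range: 25.0% below 35% (1 of 4 genes), 85.7% at a GC content of 35 to 45% (60 of 70), 98.3% at 65 to 75%, 93.3% at 75 to 80% and 78.0% above that. Among genes with no read it rose with GC content from 7.20% at 35 to 45% to 24.2% at 75 to 80%, and was 15.4% above. How GC content acts on amplification, alignment or peak calling was not tested.

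**Figure D5:**
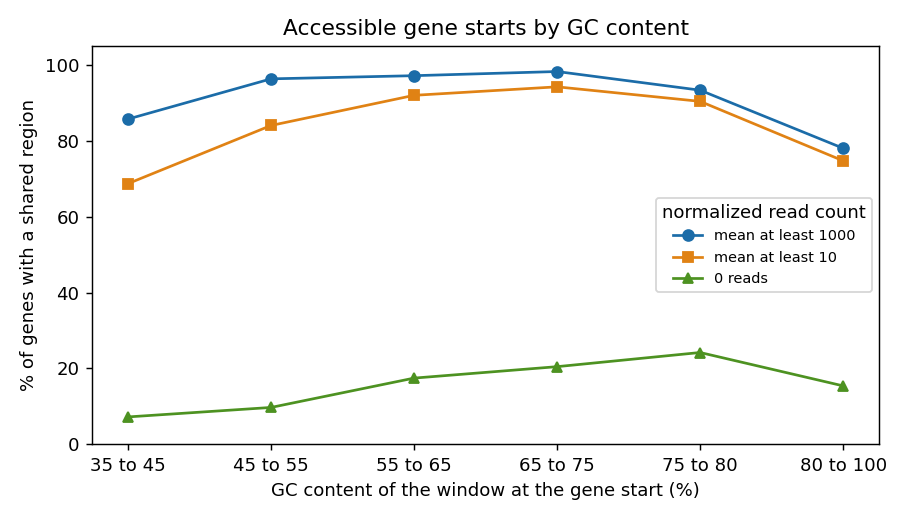
Percent of genes with a shared region at the start, by GC content of the window, for genes with no read, a mean of 10 or more, or a mean of 1000 or more. At every GC content shown the genes with reads lie above the genes with none, and all 3 lines drop in the last class (to 78.0% for means of 1000 or more).

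Accessible starts differed from the rest in sequence composition. Here, and for the GC content above, 1 window was used for each of the 18530 genes. It was the one with the highest fold enrichment, or the first by position where none was accessible. The set of windows was thus picked with the ATAC signal itself. The median ratio of observed to expected CpG was 0.857 in accessible windows of measured genes, 0.569 in inaccessible windows of measured genes, 0.618 in accessible windows of genes with no read and 0.268 in inaccessible windows of genes with no read. Short motifs were counted on both strands of the 300-base windows, and no motif printed here contains another. The GC box GGGCGG, bound by SP factors, was in 54.8% of all windows, in 73.7% of accessible and 54.2% of inaccessible measured ones. In windows of genes with no read it was in 51.4% of accessible and 25.7% of inaccessible ones. The ETS motif CCGGAAGT was in 5.69% of all, 9.86% of accessible measured and 2.07% of inaccessible measured windows. The YY1 motif AAGATGGCG followed the same order at 2.49%, 4.46% and 0.591%, and the NRF1 motif GCGCATGCG at 2.55%, 4.13% and 1.67%.

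Other motifs were less frequent in accessible measured windows than in all windows. The TATA box TATAAA was in 9.99% of all windows, in 4.66% of accessible and 9.25% of inaccessible measured ones. In windows of genes with no read it was in 11.6% of accessible and 19.7% of inaccessible ones. The AP-1 motif TGANTCA was in 6.95% of all windows, in 4.90% of accessible and 4.23% of inaccessible measured ones. In windows of genes with no read it was in 13.0% of accessible and 9.24% of inaccessible ones. Within measured genes and within genes with no read it was thus more frequent in the accessible windows. The HNF4 motif CAAAGTCCA was in 0.313% of all windows and in 0.130% of accessible measured ones. A match is a stretch of letters and not a bound site.

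The 661 genes with an accessible start and no read were in part neighbours of other genes. Of them 18.2% had a start within 1 kb of the start of a measured gene, against 0.859% of the 4654 genes with no read and no accessible start. Their spans overlapped another gene in 63.1% against 46.5%. On chromosome 6 between 28 and 34 Mb, where the MHC genes lie, there were 72 of them (10.9%) against 78 of the others (1.68%). The 10 with the highest fold enrichment were FANK1-AS1, CPB2-AS1, SRGAP3-AS4, TTC29, COL21A1, CFAP43, RBAK-RBAKDN, LINC01392, XIRP2-AS1 and ZBTB9, at 23.3-fold down to 21.5-fold as means of both libraries. All 10 overlapped another gene's span, and CPB2-AS1 and RBAK-RBAKDN started within 1 kb of a measured gene's start. Where a measured gene starts within 1 kb, the peak cannot be told apart from that of the neighbour. Of the 661 genes, 214 had neither such a start nor an overlapping span, against 2477 of the 4654 others.

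Genes with several annotated starts often had some of them without a shared region. Of 1537 measured genes with 2 or more starts at least 1 kb apart, 149 had none accessible, 804 had exactly 1, 156 had several but not all and 428 had all, so that 72.2% had an annotated start without a shared region. HNF4A, CPS1 and MITF, described above, were of the kind with exactly 1.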

How the data were processed

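RNA-seq was made on polyA RNA of 3 DMSO samples and ATAC-seq on 2. The RNA values are signal, the normalized read counts deposited by the authors for 59609 genes. Each column is a whole-number read count divided by 1 size factor: dividing by the step recovered whole reads for 100% of values (tolerance 0.001). The table holds 6 libraries, 3 of them treated, so its size factors may reflect all 6. The columns name the group and not which sample. The peak lists deposited by the authors, per library, give a fold enrichment (a ratio), a score, and p- and q-values as −log10 per peak. The submitters' processing notes name MACS2 2.2.7.1, Bowtie2 2.4.1, SAMtools, DESeq2, Picard, HISAT2, cutadapt, featureCounts 1.6.1 and the build hg38, without roles or settings.

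Genes were ranked by mean, with SD over 3 columns. Peaks of both lists were merged at 1 bp overlap, leaving out 6 and 10 mitochondrial peaks. Names were matched to RefSeq (38317 by symbol or synonym), and 18530 genes had start windows of 300 bases. No test applied, since there was 1 group. Read recovery and overlaps were tested on simulated data and run in Python 3.11.15 with pandas 2.3.3 and SciPy 1.17.1. Named were the 20 highest genes, the title genes, the top 3 of each of 28 lists and every counted liver factor or hepatocyte gene, the 10 most variable genes, the 10 most abundant genes without and the 10 unread genes with an accessible start, and the 5 strongest starts. Others were named after their values were seen, and some members, though counted, are not reported here by name. Members and lists were chosen with earlier results of these data known.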

Additional observations from a re-analysis of the deposited data

How the results depend on the processing

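No paired analysis was possible because the result comes from no test and there is 1 group. Of 53 recomputed values 34 moved by less than the spread between libraries, or 1.5 times for counts, and 19 moved. Only the difference in level and the correlation could change sign, and neither did in these settings. The correlation over measured genes alone was not among the 53, and it was -0.0194 against 0.0610 over all genes with an accessible start. The number of hepatocyte products measured was 11 at a minimum mean of 1 and 3 at 100, against 5. The percent of measured genes with an accessible start was 94.5 at a minimum mean of 100, 92.9 with 1 kb on both sides of the start and 98.2 over the gene span with 2 kb on both sides. The genes with no read then stood at 18.1% and 51.3%. The difference in median log2 level was 8.85 at −log10 q of at least 5, 8.66 with 1 kb, 7.45 over the span, 9.83 and 6.52 at pseudocounts of 0.5 and 5, and 3.14 among measured genes. The correlation of RNA level with fold enrichment was 0.0431 at −log10 q of at least 5, 0.0499 with 131239 peaks in each list, 0.0996 with 1 kb and 0.163 over the span. With a library left out, the accessible percent ran from 89.8 to 91.7, the difference from 8.77 to 8.84 and the correlation from 0.0604 to 0.0843. The number of genes measured then ran from 14136 to 14182, the share of the 100 most abundant genes from 22.3% to 22.8%, and the number of hepatocyte products stayed at 5. The cause of each change was not tested. Ranking per kb of transcript was not run, as no transcript lengths were used here, so ranks by read count depend on length. Peak lists give no reads, so the depth of the ATAC libraries is unknown.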

Other observations

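A few genes differed between the 3 DMSO libraries far beyond the median coefficient of variation of 6.96%. The most variable gene with a mean of at least 100 was U2AF1, a splicing factor gene, at 769, 37.6 and 146 normalized read counts. Its near-identical copy U2AF1L5 read 100.1, 602 and 106, so the highest library was not the same for both. H19 came next, at 382, 493 and 3587, without a near-identical copy. CUTA read 205, 2865 and 3176, and EEF1D read 535, 154 and 1270 (a mean of 653, and 345 without control library 3). DDX24, RGPD6, LSM14A, FRG1 and ITPK1 completed the 10 most variable genes, with coefficients of variation from 78.4% to 114%.

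The shared ATAC regions of the first 50 Mb of chromosome 5 had a lower fold enrichment than elsewhere. Their median was 6.39 over 2790 regions, against 8.44 over the 5676 regions on the rest of that chromosome and 8.38 over the 107259 regions of all other chromosomes. Both libraries showed it, with 5.73 against 7.51 in library 1 and 7.07 against 9.34 in library 2 for the first 50 Mb and the rest. Of 296 bins of 10 Mb with at least 100 shared regions, the bins from 0, 40 and 10 Mb of chromosome 5 had the lowest median fold enrichment, at 5.31, 5.78 and 6.45, where the median bin stood at 8.40. The 90 measured genes with a start there had a median of 1378 normalized read counts, against 553 for 427 genes on the rest of the chromosome and 583 for 9753 genes elsewhere. This stretch was singled out after the values were seen, and DNA copy number was not analysed here.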
